A study of Mus musculus with 18 samples.

Results

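Cytoplasmic RNA of mouse soleus myofibers was compared with cytoplasmic RNA of myofibers of the extensor digitorum longus (EDL). The comparison used 6 of the 18 arrays of the series, the 3 cytoplasm arrays of each muscle, chosen by their labels alone. Each array held 1 pool of 5 to 10 intact fibers of 1 muscle. Fibers were freed with collagenase and picked under a microscope, and the nuclei were spun out of the lysate. All fibers came from untreated CD1 female mice aged 3 months, with no transgene or deletion in any group. The same 3 pairs of mice gave a soleus pool and an EDL pool each (mice 3 and 4 for replicate 1, mice 5 and 6 for replicate 2, mice 7 and 8 for replicate 3). The fiber types within a pool are not given in the labels. The nuclear arrays of the same muscles and the same pairs of mice, 3 for each muscle, served for 1 further comparison.

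Soleus and EDL are the classic slow and fast muscles of the mouse hindlimb. Soleus works in posture and holds many type I fibers, which contract slowly, resist fatigue and burn fat in mitochondria, beside type IIA fibers. EDL lifts the toes in short bursts, with type IIB and IIX fibers that contract fast and live largely on glycogen and glucose. The types differ in the isoforms of nearly every sarcomeric protein. Separate genes code for slow and fast myosin heavy and light chains, troponins, tropomyosin and the SERCA pump that returns calcium to the sarcoplasmic reticulum. Type I fibers use Myh7, type IIA Myh2, type IIX Myh1 and type IIB Myh4.

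Levels are normalized log2 intensities of 1 probe, and a difference is soleus minus EDL on the log2 scale, given with the standard error (SE) of limma's fit. The adjusted p-values are those of limma over all probes tested, 2-sided, and a probe was called below 0.05. The 12 myofiber markers were well above background on all 6 arrays, so the labelled cell type was present in each pool. The same held for all 8 endothelial, 7 smooth muscle and pericyte and 6 Schwann cell markers. It also held for 6 of 7 fibroblast and 5 of 7 macrophage markers, so marker signal of other cell types was present too. Signal was positive and significant for 81.9% to 87.7% of spots. Soleus cytoplasm 2 stood apart from the other arrays. It had the lowest share of spots well above background (58.6%), the lowest correlations across probes with other arrays (r from 0.930 to 0.946), and a first principal component score of 121.8 against -47.6 to -2.99 elsewhere. Its summed linear level of 11 nuclear-retained RNAs was 11920, against 6873 to 9793 on the other 5 arrays. This was not particular to those RNAs. Of the cell type marker lists, all but that of macrophages also had their highest sum on this array. Myofiber markers summed to 97610 against 65610 to 79850, and endothelial markers to 6364 against 4068 to 4712. Counts of calls are therefore also given without soleus cytoplasm 2, and counts of lists where they changed by over 1.5 times. The 6 arrays shared 1 slide, with EDL in slide columns 3 and 4 and soleus in columns 1 and 2, so that place on the slide and muscle cannot be told apart. In pooled fibers, fewer fibers of a type and less RNA per fiber cannot be told apart either.

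Genes of the slow sarcomere stood highest in soleus cytoplasm. Of 45470 probes tested, 34 were called higher in soleus (0.0748%) and 10 lower (0.022%), for 42 gene and transcript names. The smallest difference among the 44 was 1.89. At an unadjusted p under 0.05 there were 3691 probes, and the median difference of all probes was -0.08. Replicates spread more in soleus than in EDL, with a median SD of 0.38 against 0.27. Leaving out soleus cytoplasm 2 left 4 probes called, those of Atp2a2, Tpm3, Gm5532 and a transcript at the Tnnt1 locus, with adjusted p from 0.0623 to 0.215 for the rest. Without soleus cytoplasm 1, 35 probes were called, 27 of them among the 44. Without soleus cytoplasm 3, EDL cytoplasm 1, EDL cytoplasm 2 and EDL cytoplasm 3, 17, 18, 15 and 20 were called, of which 16, 17, 15 and 18 were among the 44. With the pair of mice as a block, 16 were called, 15 of them higher in soleus. All 44 kept their direction in each of these fits. With normexp background correction and an offset of 50, 42 of the 44 were called, with smaller folds for dim probes, such as 19.2 in place of 47.4 for Atp2a2 and 3.22 in place of 6.72 for Casq2.

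**Figure D1:**
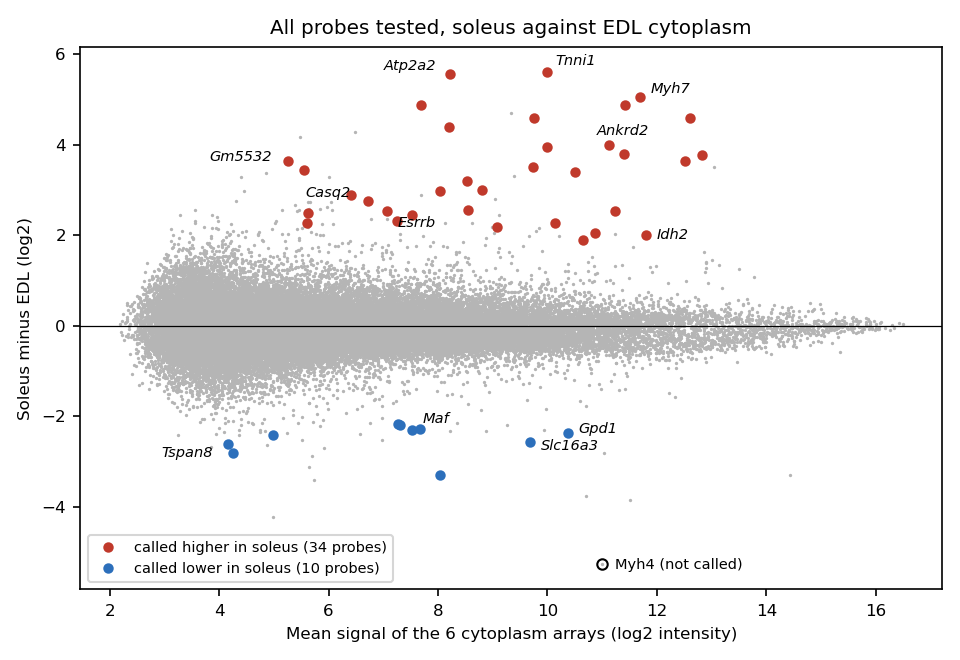
Mean signal of the 6 cytoplasm arrays (log2 intensity, horizontal) against the difference between soleus and EDL (log2, vertical) for 45470 probes, with the 34 called higher in soleus in red and the 10 called lower in blue. The called probes lie at differences of at least 1.89 in size over a wide range of signal, and Myh4 has the lowest value, -5.27, without being called.

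Tnni1, the slow skeletal troponin I that holds actin back from myosin at low calcium, had the largest difference. Its levels were 12.93, 13.28 and 12.19 in the 3 soleus pools and 8.02, 7.10 and 6.44 in the 3 EDL pools. All soleus pools lay above all EDL pools. The difference was 5.61 (SE 0.45, adjusted p = 0.00759 by limma), 48.9-fold. Myh7, the slow myosin heavy chain, had levels of 13.96, 14.70 and 14 in soleus against 9.99, 9.08 and 8.44 in EDL. The gap between the lowest soleus and the highest EDL pool was again wider than the range within either muscle. The difference was 5.05 (SE 0.42, adjusted p = 0.00857 by limma), 33.1-fold. Myl3, the slow essential light chain, differed by 4.59 (SE 0.39, adjusted p = 0.00899 by limma), and Tnnc1 and Tnnt1, the slow troponin C and troponin T, by 3.79 and 3.77.

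In the list of 11 slow contractile genes, 8 were called higher and none lower, where 0.112% of 25850 genes were called higher and 0.0193% lower. All 11 had their 3 soleus arrays above their 3 EDL arrays, which was so for 8.24% of all genes. The median difference was 3.95, against -0.04 for all genes. The called members also included Tpm3, the slow tropomyosin (3.64), Myoz2, the slow myozenin that ties calcineurin to the Z-disc (4.38), and Myh7b, a myosin heavy chain of slow and heart muscle (3.95). Myl6b and Myl2, further light chains, had differences of 4.29 and 3.52 with adjusted p of 0.0561 and 0.0699. Mybpc1, the slow myosin-binding protein C, had the smallest, 0.43 (adjusted p = 0.699), with levels of 12.33 to 12.66 in EDL and 12.79 to 13.31 in soleus. With the mice as a block the same number, 8, was called. Without soleus cytoplasm 2 only Tpm3 of the list was called. All 11 still lay above EDL without overlap, where 13.0% of all genes did, with a median difference of 3.70. A second called probe of Tpm3 differed by 3.4 and was not called under the block (adjusted p = 0.0595).

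The pools of EDL were not equal in slow genes. EDL cytoplasm 1 had the highest EDL level for 9 of the 11 genes, and EDL cytoplasm 3 the lowest for 7. For Atp2a2 the brighter of 2 probes read 8.49, 6.89 and 5.58 in EDL pools 1, 2 and 3. In soleus, pool 2 was highest for 10 of the 11. The median of pool 2 less the mean of the other soleus pools was 0.50 for this list. It was 0.49 for endothelial and 0.545 for fibroblast markers, so pool 2 did not read high in slow genes alone. Fast contractile genes had -0.13 and all genes -0.12.

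**Figure D2:**
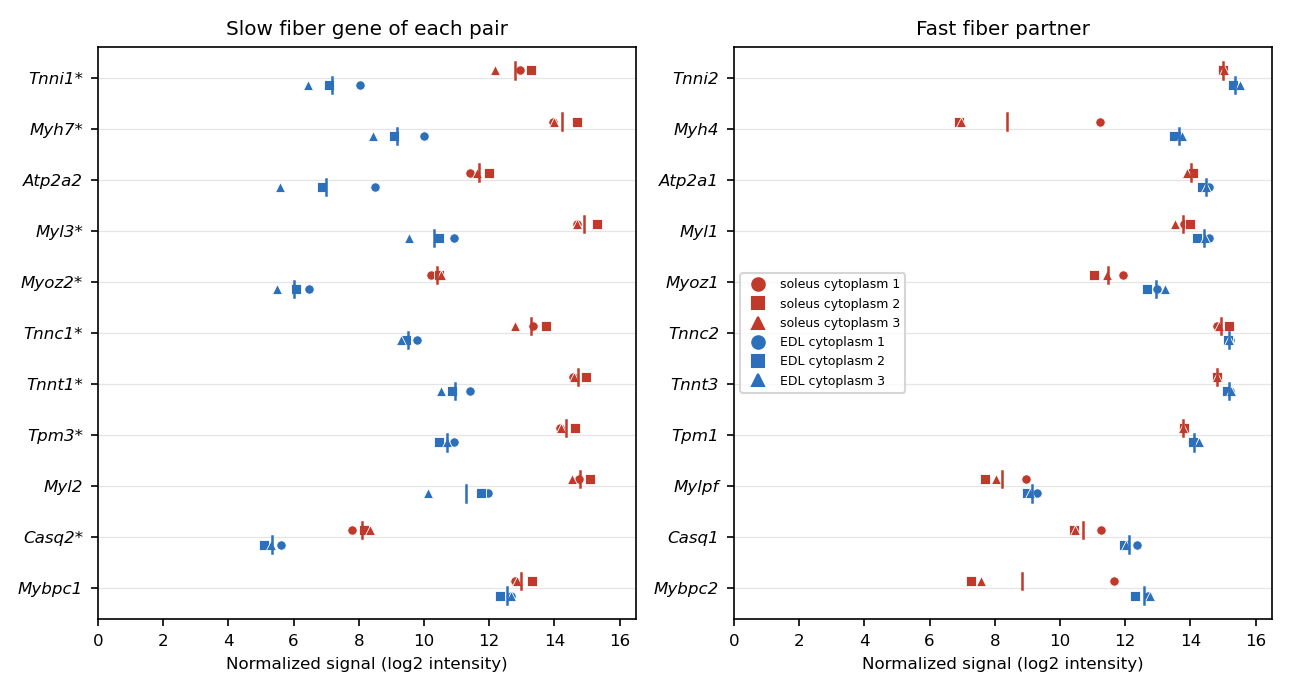
Normalized signal (log2 intensity) of the slow gene (left) and its fast partner (right) for 11 sarcomeric or calcium-handling proteins, each point 1 cytoplasm array, red for soleus and blue for EDL, vertical bars group means, an asterisk a called gene. The slow genes are separated by 2.75 to 5.61 except Mybpc1, while the fast partners other than Myh4, Mybpc2, Myoz1 and Casq1 lie within 0.90 of each other on average.

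The called myosin genes carry microRNAs of the myosin (myomiR) family in their introns. By RefSeq on GRCm38.p6, Mir208b lies within Myh7, Mir208a within Myh6 and Mir499 within Myh7b. These microRNAs are known for holding up the slow fiber program. They are printed because all 3 host genes had a probe called higher in soleus, by 5.05, 4.89 and 3.95. The arrays read the host transcripts, and the mature microRNAs were not measured. Capitals mark the seed, bases 2 to 8.
mmu-miR-208b-3p, chr14:54975710-54975731, minus strand: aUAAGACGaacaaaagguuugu
mmu-miR-208a-3p, chr14:54949072-54949093, minus strand: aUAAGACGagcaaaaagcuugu
mmu-miR-499-5p, chr2:155622893-155622913, plus strand: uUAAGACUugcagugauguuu
The miR-208 forms share the seed UAAGACG, and miR-499-5p has UAAGACU. Myh6, the atrial myosin heavy chain, is an uncertain member of this group. Its called probe read 9.88, 10.58 and 9.93 in soleus and 5.805, 5.201 and 4.73 in EDL. The brighter Myh6 probe differed by 1.00 only (SE 0.29, adjusted p = 0.440 by limma).

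Pairs of called probes at 1 locus count 1 signal more than once. The probe named LOC674761 (difference 4.87) lies at chr14:55589521-55589580 on mm9, directly beside the Myh7 probe at chr14:55589581-55589640. The probe of ENSMUST00000108587 (4.599) lies at chr7:4456172-4456231, next to the Tnnt1 probe at chr7:4456265-4456324. No mm9 annotation was used here, so exon and UTR positions of probes are not given.

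Promoters of the called genes were searched for 3 motifs of muscle gene regulation on both strands, in the 250 bases before the RefSeq start on GRCm38.p6. Of 33 names called higher, 26 had a promoter in the table. CAGCTG, an E-box form bound by myogenic bHLH factors, was found in 3 of the 26 (13.0% of 32851 promoters hold it). CATTCC, the core of the MCAT element bound by TEAD factors, was also found in 3 (12.6% of all). The core of the MEF2 site, CTA and TAG with 4 bases of any kind between them, was found in 1 (3.202% of all), and the 4 promoters of names called lower held none of the motifs. The 3 promoters below show the matches in capitals, for genes with differences of 5.61, 4.59 and 4.38. No motif overlapped another in them.
Tnni1, chr1:135799261-135799510, plus strand: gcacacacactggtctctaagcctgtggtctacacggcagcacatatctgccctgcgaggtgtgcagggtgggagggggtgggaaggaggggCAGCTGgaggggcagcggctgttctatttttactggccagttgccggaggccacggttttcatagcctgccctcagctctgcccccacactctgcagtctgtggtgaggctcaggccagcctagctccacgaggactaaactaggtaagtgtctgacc
Myl3, chr9:110763428-110763677, plus strand: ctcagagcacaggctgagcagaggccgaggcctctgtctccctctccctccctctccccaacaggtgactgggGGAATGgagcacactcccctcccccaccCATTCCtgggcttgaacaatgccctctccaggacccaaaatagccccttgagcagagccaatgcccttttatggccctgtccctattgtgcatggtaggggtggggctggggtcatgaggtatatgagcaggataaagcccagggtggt
Myoz2, chr3:123034988-123035237, minus strand: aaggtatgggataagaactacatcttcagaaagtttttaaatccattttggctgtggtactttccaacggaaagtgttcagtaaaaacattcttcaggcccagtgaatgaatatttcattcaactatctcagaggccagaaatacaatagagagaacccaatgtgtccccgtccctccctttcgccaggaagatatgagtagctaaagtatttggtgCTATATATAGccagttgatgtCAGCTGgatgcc
Tnni1 held 1 E-box, Myl3 held 2 MCAT cores, and Myoz2 held 1 MEF2 core and 1 E-box. The share with a motif was near that of all promoters for each of the 3, and a match is a run of letters, not a bound site.

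Fast contractile genes gave no call, and those of type IIB fibers read unevenly among the soleus pools. Of 14 tested, none was called by limma in either direction, and 10 had an unadjusted p under 0.05. Their 3 soleus arrays lay below the 3 EDL arrays in 11, which was so for 8.12% of all genes, and above in 1. The median difference was -0.96, and -0.77 without soleus cytoplasm 2. Without that array 12 lay below and 1 above, where 12.2% and 13.0% of all genes did. Differences were small for the fast troponins and tropomyosin, with -0.37 for Tnni2, -0.36 for Tnnt3, -0.34 for Tpm1 and -0.23 for Tnnc2.

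Myh4, the type IIB myosin heavy chain, read 13.65, 13.51 and 13.75 in the EDL pools. In soleus it read 11.22 in pool 1, and 6.91 and 6.98 in pools 2 and 3. Every soleus pool lay below every EDL pool, but pool 1 was closer to EDL than to the other soleus pools. The difference was -5.27 (SE 1.04, adjusted p = 0.230 by limma), the lowest value over all probes tested. Mybpc2, the fast myosin-binding protein C, had the same pattern, with 11.66 in soleus pool 1 against 7.26 and 7.59 in the others and 12.30 to 12.77 in EDL. Actn3, the fast Z-disc actinin, read 12.37 in soleus pool 1, within the EDL range of 12.08 to 12.76, against 8.54 and 7.97 in pools 2 and 3. Pvalb, the calcium buffer of type IIB fibers, read 14.67, 12.63 and 11.06 in soleus and 16.01 to 16.14 in EDL. Without soleus cytoplasm 1 these 4 genes were called lower in soleus, Myh4 by -6.68, Mybpc2 by -5.16, Actn3 by -4.17 and Pvalb by -4.21 (adjusted p = 0.00043, 0.00334, 0.00901 and 0.0252 by limma).

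Myh1, the type IIX heavy chain, went the other way among the soleus pools. It read 10.36 in soleus pool 1 and 12.18 and 12.08 in pools 2 and 3, against 12.86 to 13.38 in EDL (difference -1.58, SE 0.48, adjusted p = 0.466 by limma). Myh2, the type IIA heavy chain, was above EDL in each soleus pool, with 13.27, 13.87 and 13.65 against 12.47, 12.37 and 11.81 (difference 1.38, SE 0.28, adjusted p = 0.249 by limma). It was the one fast contractile gene of the list above EDL without overlap. In the nuclear arrays of soleus, Myh4 read 11.01, 10.97 and 11.15, so the wide spread of the cytoplasm pools was not seen there. Myh3, the embryonic heavy chain, had levels of 8.56, 9.07 and 7.12 in soleus and 5.35 to 6.49 in EDL (difference 2.37, adjusted p = 0.297).

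**Figure D3:**
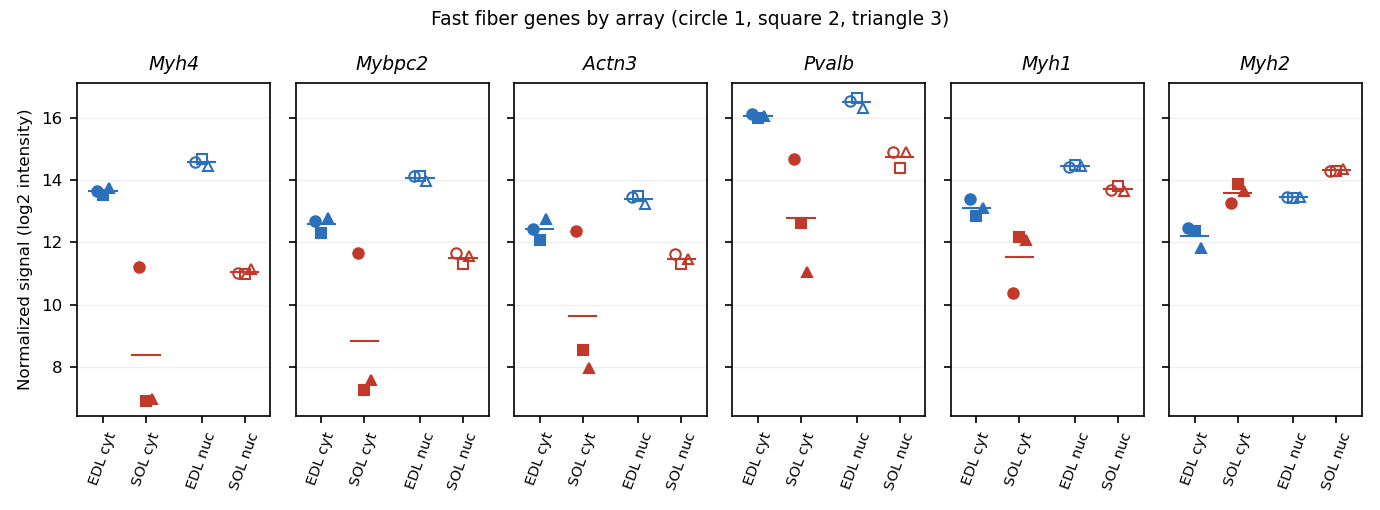
Normalized signal (log2 intensity) of 6 fast fiber genes on each array, blue for EDL and red for soleus, filled for cytoplasm (cyt) and open for nuclei (nuc), bars group means, with each fraction normalized on its own. Soleus cytoplasm 1 (red filled circle) reads 11.22 for Myh4 against 6.91 and 6.98 in the other soleus pools, while the 3 nuclear soleus arrays read 10.97 to 11.15.

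The slow forms of the calcium pump and store were higher in soleus. Atp2a2, the slow SERCA pump, read 10.95, 11.40 and 10.67 in soleus and 5.89, 5.42 and 5.01 in EDL with its called probe. No pools overlapped. It differed by 5.57 (SE 0.32, adjusted p = 0.00543 by limma), 47.4-fold. Its brighter probe differed by 4.70 and was not called (adjusted p = 0.0699). Casq2, the slow calsequestrin that stores calcium, read 7.796, 8.15 and 8.34 in soleus and 5.63, 5.097 and 5.315 in EDL. The groups did not overlap, and the difference was 2.75 (SE 0.26, adjusted p = 0.0157 by limma). With the mice as a block it was not called (adjusted p = 0.0964), nor without soleus cytoplasm 2.

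In the calcium list 1 of 24 genes was called, Casq2, where 0.112% of all genes were called higher. Above EDL without overlap were 3 (12.5%) and below 9 (37.5%), against 8.24% and 8.12% of all genes. The fast counterparts were closer between muscles, Atp2a1 at -0.45 and Casq1 at -1.40 (adjusted p of 0.658 and 0.270). Sln, the small inhibitor of SERCA, had levels of 10.24 to 11.84 in soleus and 8.96, 8.64 and 5.63 in EDL (difference 3.304, adjusted p = 0.390). The calcium release channel Ryr1 and the voltage sensor Cacna1s had differences of -0.64 and -0.32 with overlapping groups.

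Of 21 genes of the Z-disc and of the response to stretch, 3 were called higher in soleus and none lower. Of all genes, 0.112% were called higher and 0.0193% lower. Ankrd2, a stretch-responsive ankyrin repeat protein bound to titin, read 13.13, 12.98 and 13.27 in soleus and 9.75, 8.72 and 8.93 in EDL. The soleus pools were close to each other and above all EDL pools. The difference was 3.99 (SE 0.31, adjusted p = 0.00759 by limma), 15.9-fold. Csrp3, the muscle LIM protein of the Z-disc, read 11.48, 11.32 and 11.66 against 8.64, 7.88 and 7.43 and differed by 3.502 (SE 0.34, adjusted p = 0.0157 by limma). Actn2, the actinin of all fiber types, differed by 2.26 (adjusted p = 0.0459). Of the list 10 lay above EDL without overlap, against 8.24% of all genes, and the median difference was 0.64. Fhl1, a LIM protein of slow fibers, and Pdlim1, which binds actinin, differed by 2.15 and 2.03 (adjusted p = 0.126 and 0.0767). Titin itself (Ttn, -0.05), nebulin (Neb, 0.23) and telethonin (Tcap, 0.23) had groups that overlapped. With the mice as a block Ankrd2 was called, and Csrp3 and Actn2 were not (adjusted p = 0.0595 and 0.145). Without soleus cytoplasm 2 none of the list was called, with 11 above EDL without overlap (52.4%), where 13.0% of all genes were.

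One small heat shock protein gene rose in soleus. Hspb7 was the 1 called of 18 chaperone genes, where 0.112% of all genes were called higher. It read 12.14, 12.98 and 12.38 in soleus and 10.02, 9.78 and 10.13 in EDL. No pools overlapped, and the difference was 2.53 (SE 0.28, adjusted p = 0.0340 by limma), with 0.137 under the block of mice. Hspb6 and Cryab, of the same family, had differences of 0.95 and 0.83 without overlap (adjusted p = 0.438 and 0.512). The stress-induced Hspa1a had -0.49 with overlap.

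Genes of fat use read higher in soleus by small amounts. All 28 genes tested for fatty acid uptake and oxidation had a positive difference, from 0.33 to 1.77. Of these, 24 lay above EDL without overlap (85.7%), against 8.24% of all genes. The median difference was 0.95. None was called by limma, while 21 had an unadjusted p under 0.05. Fabp3, the fatty acid carrier of muscle, read 13.64, 14.01 and 13.77 in soleus and 12.48, 12.27 and 12.62 in EDL (difference 1.35, SE 0.24, adjusted p = 0.165 by limma). Each soleus pool was above each EDL pool. Cd36, the fatty acid transporter, Lpl, which frees fatty acids from lipoproteins, and Acadl, an acyl-CoA dehydrogenase, had differences of 1.24, 1.21 and 1.41. Pdk4, the kinase that turns off pyruvate dehydrogenase, had the widest, 1.77, and read 7.12 in EDL pool 3 against 9.80 and 9.07 in the other EDL pools. Without soleus cytoplasm 2, 25 of 28 lay above EDL without overlap, where 13.0% of all genes did.

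Most glycolytic genes read lower in soleus, with 1 call among 23, where 0.0193% of all genes were called lower. Gpd1, the cytosolic glycerol-3-phosphate dehydrogenase that takes carbon and electrons out of glycolysis, read 9.53, 9.34 and 8.72 in soleus and 11.70, 11.26 and 11.75 in EDL. All soleus pools lay below all EDL pools. It fell by 2.38 (SE 0.29, adjusted p = 0.0481 by limma), 5.19-fold, and was not called with the mice as a block (adjusted p = 0.147). Of 23 genes of glycolysis and glycogen use, 15 lay below EDL without overlap (65.2%) and 4 above (17.4%). The shares of all genes were 8.12% and 8.24%. The median difference of the list was -0.57. The phosphorylase kinase subunits Phka1 and Phkg1 had -1.84 and -1.31, and Pygm, the phosphorylase, -0.81. Pfkm, Eno3 and Ldha, of the steps from glucose to lactate, had -0.76, -0.59 and -0.44 (adjusted p = 0.495, 0.592 and 0.688). Of the genes of glycogen building, Gys1, the synthase, was at 0.70, Gbe1, the branching enzyme, at 0.73 and Ugp2 at 0.63, each without overlap (adjusted p from 0.571 to 0.620).

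Slc16a3, the transporter MCT4 that exports lactate from fast fibers, read 8.84, 8.39 and 7.99 in soleus and 11.04, 10.62 and 11.24 in EDL with its called probe. The groups did not overlap. It fell by 2.56 (SE 0.30, adjusted p = 0.0391 by limma), with 0.137 under the block. The brighter probe of the gene differed by -2.30 (adjusted p = 0.0755). Ldhb, the lactate dehydrogenase subunit of oxidative fibers, read 11.31, 11.93 and 11.60 in soleus against 9.70, 9.79 and 9.61 in EDL (difference 1.92, SE 0.25, adjusted p = 0.0561 by limma). The pseudogene probe Ldhb-ps was called at 1.89 (adjusted p = 0.0475, and 0.199 under the block), but it shares at least 30 bases with the Ldhb probe, so the 2 readings cannot be told apart. Slc16a1, the importer MCT1, was well above background on 1 array of each muscle only. Mb, the oxygen store myoglobin, and Car3, a carbonic anhydrase of slow fibers, had 1.25 and 1.63 without overlap (adjusted p = 0.265 and 0.163).

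Respiratory chain genes read nearly level. Over 79 nuclear-encoded subunits the median difference was 0.05 and the range -0.51 to 0.47, with none called and none at an unadjusted p under 0.05. Above EDL without overlap were 6 and below 2, under the shares of all genes (8.24% and 8.12%). Without soleus cytoplasm 2 these were 8 and 12 of 78 (10.3% and 15.4%), near the 13.0% and 12.2% of all genes. In the TCA cycle 1 of 18 genes was called, where 0.112% of all genes were called higher. It was Idh2, the mitochondrial isocitrate dehydrogenase that makes NADPH. It read 12.69, 12.94 and 12.80 in soleus and 10.98, 10.71 and 10.74 in EDL, with no overlap and a difference of 2.00 (SE 0.22, adjusted p = 0.0340 by limma, and 0.166 under the block). Idh3a, the NAD-dependent form, had -0.55 without overlap, and citrate synthase (Cs) had 0.16 with overlap.

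**Figure D4:**
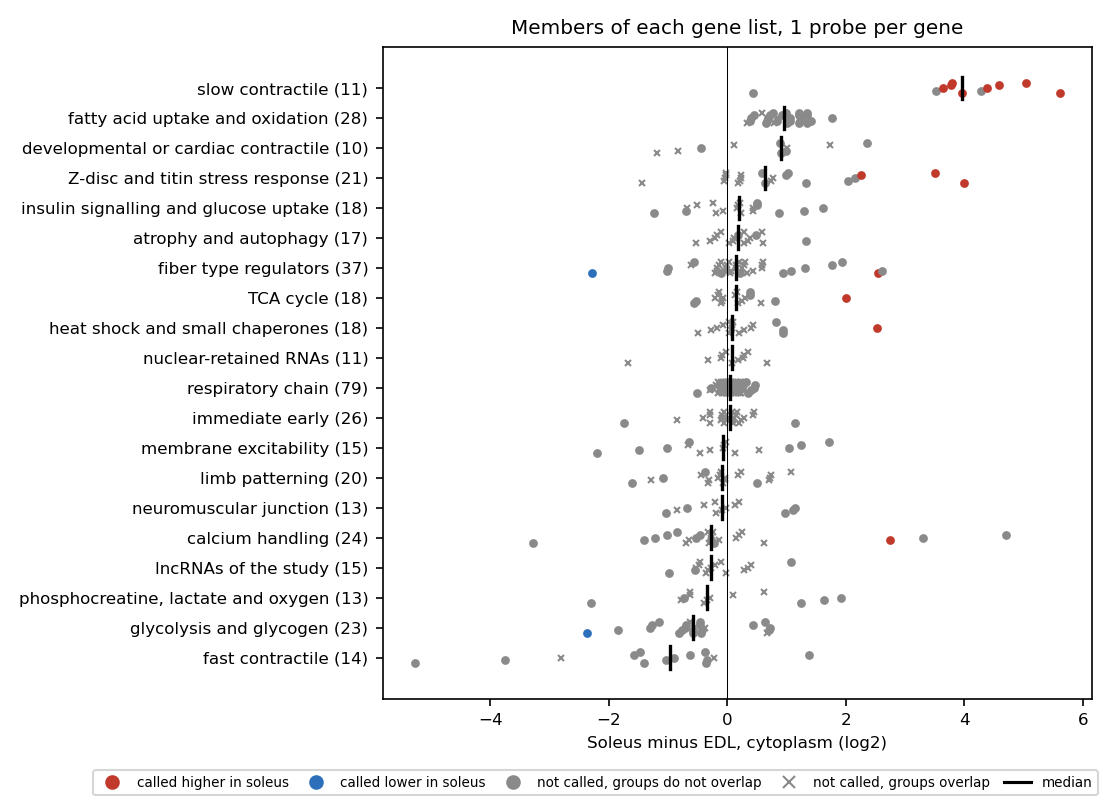
Difference between soleus and EDL cytoplasm (log2) of each tested member of 20 gene lists, 1 probe per gene, with the number tested in brackets and a black bar at the median. Slow contractile genes (median 3.95) and fat oxidation (0.95) lie to the right, glycolysis (-0.57) and fast contractile genes (-0.96) to the left, and the 79 respiratory chain genes stay between -0.51 and 0.47.

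Among 37 regulators of fiber type, 1 was called higher and 1 lower, against 0.112% and 0.0193% of all genes. Esrrb, an orphan nuclear receptor related to the estrogen receptors, read 8.28, 8.83 and 7.94 in soleus and 5.68, 5.64 and 6.10 in EDL. It differed by 2.54 (SE 0.30, adjusted p = 0.0391 by limma, and 0.145 under the block). Maf, a bZIP factor of the large Maf family active in type IIB fibers, read 6.49, 6.66 and 6.01 in soleus and 8.81, 8.41 and 8.81 in EDL. Neither gene had overlapping groups. It fell by 2.29 (SE 0.27, adjusted p = 0.0391 by limma, and 0.150 under the block). Mafa, its relative, had -0.14 with overlap. Prox1, a homeobox factor of slow fibers, read 7.29, 7.86 and 6.72 in soleus and 5.08, 4.46 and 4.46 in EDL. Its groups were well apart, with a difference of 2.62 (SE 0.35, adjusted p = 0.0627 by limma).

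Esrrg, a further orphan receptor, had 1.76 without overlap, and the calcineurin targets Rcan1 and Rcan2 had 1.94 and 1.30 (adjusted p from 0.247 to 0.390). Sox6 and Tbx15, repressor and activator on the fast side, had -1.01 and -0.9998 without overlap (adjusted p = 0.571 and 0.298). The coactivator Ppargc1a had -0.17, the calcineurin effector Nfatc1 -0.04 and Mef2c -0.02, all with overlap. Of 20 limb patterning genes tested none was called and the median was -0.08. Above EDL without overlap was 1 (5%) and below were 3 (15%), against 8.24% and 8.12% of all genes. Without soleus cytoplasm 2 these were 2 and 5 of 18 (11.1% and 27.8%), against 13.0% and 12.2% of all genes.

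Called genes outside the lists included several of the sarcomere. Higher in soleus were Myom3, an M-band protein of slow and intermediate fibers (3.19), Lmod2, which lengthens thin filaments (2.44), Smtnl1, a smoothelin-like protein (2.56), and Adprhl1, a protein of cardiac and skeletal muscle (2.18). Their adjusted p ran from 0.0154 to 0.0391, and from 0.0897 to 0.166 under the block. Lgi1, a secreted synaptic protein, read 6.94, 7.19 and 6.499 in soleus and 4.41, 4.46 and 4.27 in EDL. The groups did not overlap, and it differed by 2.495 (adjusted p = 0.0242, and 0.0945 under the block). Pcp4l1 (2.97), Phyhd1 (2.32) and BC048679 (3.45) were also called, the last with its signal well above background on 1 of 3 EDL arrays. None of the 3 was called under the block (adjusted p from 0.0749 to 0.137). Also called higher were TC1682680 (3.0), a transcript with no gene name, and NAP111386-1 (2.04), which shares at least 30 bases with a Pdlim1 probe.

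Postn, a matrix protein secreted by fibroblasts, read 7.95, 8.34 and 7.26 in soleus and 5.39, 4.81 and 4.72 in EDL. It differed by 2.88 (SE 0.34, adjusted p = 0.0396 by limma). P3h2, which modifies collagen, differed by 2.28. Both were not called under the block (adjusted p = 0.0945 and 0.135). The summed linear level of 7 fibroblast markers was 29810, 43360 and 29730 in soleus and 24470, 23690 and 29860 in EDL. Above EDL without overlap were 2 of the 7 (28.6%), Fn1 at 1.28 and Col1a2 at 0.49, against 8.24% of all genes. The median of the 7 was 0.19 and the lowest value -0.21. Without soleus cytoplasm 2 the median was 0.009. The part of fibroblasts in the Postn and P3h2 results was not tested. The summed level of 8 satellite cell markers was 495 to 734.1 in soleus and 284.5 to 330.7 in EDL. Of the 5 tested, 4 lay above EDL without overlap, against 8.24% of all genes. Only 4 of the 8 were well above background on all 6 arrays, and Calcr was so on none, so the sum includes dim signals.

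Outside the lists, 4 named genes were lower in soleus. Carns1, the enzyme that makes the pH buffer carnosine, was well above background on 3 EDL and 0 soleus arrays and was at least 5.29-fold lower in soleus (adjusted p = 0.0452), and 1.72-fold lower with normexp background (adjusted p = 0.0342). Tspan8, a tetraspanin, was at least 6.77-fold lower on the same terms (adjusted p = 0.0391), but 1.72-fold lower and not called with normexp background (adjusted p = 0.136). The bounds, which hold for the default background only, set the EDL mean against the higher of the probe's signal and the lowest signal well above background on each soleus array. Atp1a4, a sodium pump subunit best known from sperm, read 6.11, 6.21 and 6.32 in soleus and 8.34, 8.195 and 8.68 in EDL with one probe. It fell by 2.19, and by 2.16 by a second, overlapping probe (adjusted p = 0.0307 and 0.0340). Sh2d7, an SH2 domain protein, fell by 2.28 (adjusted p = 0.0391). None of these 4 genes was called under the block (adjusted p from 0.119 to 0.145).

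Of 15 genes of membrane excitability, the sodium pump subunit Atp1b2 had -2.19 and its relative Atp1b1 had 1.72, each without overlap (adjusted p = 0.123 and 0.117). The muscle chloride channel Clcn1 had -0.67 with overlap. At the neuromuscular junction (13 genes, none called), Ache, the acetylcholinesterase, had -1.03 and the receptor subunit Chrnd 1.15 without overlap. In insulin signalling (18 genes, none called), Tbc1d4, a regulator of glucose transporter traffic, had 1.62, and Prkag3, the AMPK subunit of glycolytic fibers, -1.23. Above EDL without overlap were 5 of the 18 (27.8%) and below 2 (11.1%), against 8.24% and 8.12% of all genes. Without soleus cytoplasm 2 these were 5 and 4 (27.8% and 22.2%), against 13.0% and 12.2% of all genes. The glucose transporter Slc2a4 had 0.19 with overlap.

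Genes of atrophy and autophagy (17 tested) and immediate early genes (26 tested), which mark damage or handling of fibers, had medians of 0.19 and 0.04 with none called. Of the atrophy genes 3 lay above EDL without overlap (17.6%) and 0 below, and of the immediate early genes 1 and 1 (3.85% each). The shares of all genes were 8.24% and 8.12%. Without soleus cytoplasm 2 the atrophy genes had 3 above and 1 below (17.6% and 5.88%). The immediate early genes then had 1 and 4 (3.85% and 15.4%), where all genes had 13.0% and 12.2%. The autophagy receptor Bnip3 had 1.33 without overlap (adjusted p = 0.193). Markers of endothelial, smooth muscle, macrophage, erythroid and fat cells had medians from 0.12 to 0.27, with at most 1 member of a list without overlap, also without soleus cytoplasm 2. Schwann cell markers had a median of -0.47, with 2 of 6 below and 1 above. Without soleus cytoplasm 2, 4 of 6 were below and 1 above. The erythroid sum was highest in soleus cytoplasm 2 (41670) and EDL cytoplasm 2 (28700), the pools of the same mice, against 16730 to 18990 elsewhere. The 11 nuclear-retained RNAs had a median of 0.07 and no member without overlap.

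Among the 44 calls were 1 lncRNA, 2 lincRNA regions and 1 pseudogene. The probes of the first 3 are printed because their transcripts have no common name or known role, in lower case throughout, with the array's mm9 positions.
Gm5532, chr1:157367304-157367363, minus strand: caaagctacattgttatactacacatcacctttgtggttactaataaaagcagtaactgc
lincRNA region of chromosome 8, chr8:27925067-27925126, minus strand: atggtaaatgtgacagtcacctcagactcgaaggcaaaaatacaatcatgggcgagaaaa
lincRNA region of chromosome 4, chr4:129498730-129498789, plus strand: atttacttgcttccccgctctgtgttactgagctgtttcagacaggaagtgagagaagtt
Gm5532, a long non-coding RNA, read 6.84, 7.27 and 7.17 in soleus and 3.315, 3.56 and 3.45 in EDL. It was well above background on 3 soleus and 0 EDL arrays and at least 12.5-fold higher in soleus (adjusted p = 0.00543 by limma), and 2.80-fold higher with normexp background (adjusted p = 0.00519). It was called under the block and without soleus cytoplasm 2 too.

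The chromosome 8 region read 5.85, 6.71 and 6.595 in soleus and 9.44, 9.53 and 10.06 in EDL, with no overlap. It fell by 3.29 (SE 0.32, adjusted p = 0.0157 by limma), 9.78-fold, and was the 1 probe lower in soleus that was called under the block (adjusted p = 0.0410). The chromosome 4 region was well above background on 3 EDL and 0 soleus arrays and at least 5.76-fold lower in soleus (adjusted p = 0.0301, and 0.0897 under the block). With normexp background it was 1.42-fold lower and not called (adjusted p = 0.199). Among 13178 lincRNA region probes, 4.30% lay above and 10.6% below EDL without overlap, against 8.96% and 7.76% of 29824 coding or other probes. The median difference of lincRNA region probes was -0.18. These values by class were not computed without soleus cytoplasm 2. Without that array the median of all probes was -0.01, against -0.08 with it.

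Of 15 lncRNAs that the study followed none was called, and H19 had the highest value, 1.07, with 13.98, 14.70 and 14.28 in soleus and 13.85, 13.43 and 12.46 in EDL (adjusted p = 0.551). Pvt1, a lincRNA beside Myc, had -0.21, Neat1 0.35 and Malat1 -0.33, all with overlap. Gm16062 had the lowest, -0.99 without overlap (adjusted p = 0.394).

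Nearly all calls in cytoplasm were also calls in nuclei. All 44 probes were tested in the 6 nuclear arrays of the same muscles, which came from the same pairs of mice. The fractions are therefore not independent samples. In nuclei, 8.99% of 44568 probes were called higher in soleus and 5.93% lower. All 34 higher probes were called higher there and 9 of the 10 lower probes were called lower, none in the opposite direction. The exception was the chromosome 4 lincRNA region, with a nuclear difference of -0.28 (adjusted p = 0.284), whose cytoplasm value is only the bound above. The 43 made up 0.647% of 6649 nuclear calls, and the median SD in nuclei was 0.13 for soleus and 0.14 for EDL. Side by side, the cytoplasm value was the wider for Myh7 with 5.05 against 3.19, Tnnt1 with 3.77 against 2.38 and Myl3 with 4.59 against 3.52. It was the narrower for Lgi1, with 2.495 against 4.85. Tnni1 had 5.61 and 5.30, and Atp2a2 had 5.57 and 5.18.

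**Figure D5:**
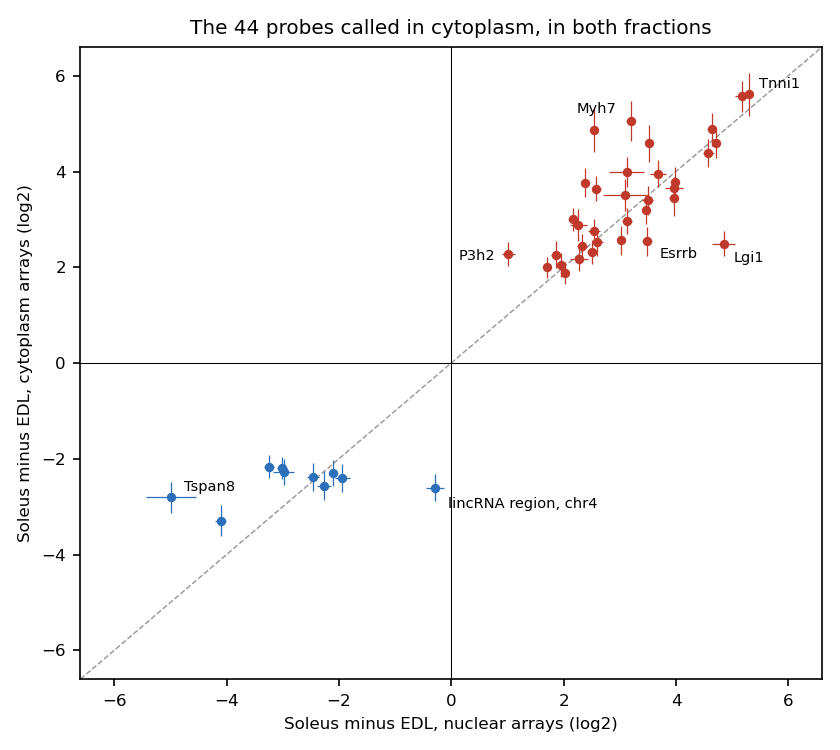
Difference between soleus and EDL (log2) in the nuclear arrays (horizontal) and the cytoplasm arrays (vertical) for the 44 probes called in cytoplasm, bars the standard errors of each fit, the dashed line equal values. The cytoplasm values chose the probes, and 43 were called in both fractions, while the chromosome 4 lincRNA region, not well above background in soleus cytoplasm, has a nuclear value of -0.28.

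Tested directly, the muscle difference depended on the fraction for 11 of 41888 probes (0.0263%), with 3399 at an unadjusted p under 0.05. Arrays of the same mice were not paired in this fit. None of the 44 probes was among the 11, and 14 of them had an unadjusted p under 0.05. For Myh7 the cytoplasm difference exceeded the nuclear one by 1.85 (SE 0.39, adjusted p = 0.209 by limma), and for Tnnt1 by 1.39 (adjusted p = 0.171). The 11 probes had differences of -0.43 to 0.52 in cytoplasm, and each was called in nuclei.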

How the data were processed

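Mouse 1-colour Agilent 8x60K arrays were used. Per the file headers, the authors' scanner files hold background-subtracted intensities from Agilent Feature Extraction 10.7.3.1. Of 59305 spots that were not controls (55681 probe names), those flagged positive and significant were used, and spots flagged as outliers were set to missing. Values were log2-transformed, quantile-normalized over the 6 arrays and averaged by probe name. A probe needed a value on at least 2 arrays per muscle. Muscles were compared with limma 3.58.1 in R 4.3.3 (lmFit and eBayes, Benjamini-Hochberg threshold 0.05, 3 arrays per group), and the effect of fraction on the muscle difference as an interaction over 12 arrays with a weight for each fraction. The scripts were tested on simulated data. The authors also deposited a table of quantile-normalized intensities for 3668 probe names, which was log2-transformed and used as an alternative. The series held 9 mice.

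The same pairs of mice gave both muscles, so replicate numbers pair the samples by the labels. Deviations of same-numbered samples from their group means correlated at r = -0.09, -0.05 and 0.12 over 40612 probes. Each fiber pool is 1 sample, and p-values measure the spread between pools. The number of arrays limits the precision.

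Genes of the lists were read by their brightest probe. The members and lists were chosen with earlier results of these data known. Genes were named where they belonged to a core set of the lists, or had 1 of the 10 largest called differences in a direction without overlap, 1 of the 5 largest among non-coding probes, or 1 of the 5 smallest p-values between fractions. Others were chosen after their values were seen. Gene symbols came from RefSeq by accession (26425 probe names), symbol (3988) or synonym (826), and 24442 had no match. Alternatives covered normalization, background, dim spots, the arrays in the fit, weights, variance model, the mice as a block, leaving out each array and the methods' t-test.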

Additional observations from a re-analysis of the deposited data

Results flagged for a closer look

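The muscle difference depended on the fraction at an adjusted p below 0.05 (limma) for 11 probes. Each value below is the soleus minus EDL difference in cytoplasm less that in nuclei, in log2, and none of the 11 was called in cytoplasm.

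The cytoplasm value was the higher for Gm12680 (5.087, adjusted p = 0.00164), ENSMUST00000107189 (2.702), Ube2c, a ubiquitin-conjugating enzyme of mitosis (2.494), LOC100046618 (2.371), Ecrg4, a secreted peptide precursor (1.685), and Lox, which cross-links collagen (1.653). It was the lower for a lincRNA region of chromosome 8 (-2.219), a lincRNA region of a further chromosome (-2.18), D630024D03Rik (-2.074), ENSMUST00000059529 (-1.762) and Sbk3, a kinase (-1.734). Gm12680 read 6.43, 5.30 and 5.42 in soleus cytoplasm and 5.525, 6.43 and 6.43 in EDL cytoplasm, with overlap. In nuclei it read 9.45 to 9.57 in EDL and was not well above background on any soleus array, so its 5.087 rests on a signal near background and gives no exact size. The second lincRNA region was likewise not well above background on any EDL nuclear array, and LOC100046618 was well above it on 1 soleus nuclear array only. With the mice as a block, Gm12680 and ENSMUST00000107189 were called.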

How the results depend on the processing

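All 44 probes, or those still tested, kept their direction under every alternative fitted with limma. Of 788 repeats over the 44 probes, 506 stayed below the threshold and 282 did not. Counts called, then higher and lower in soleus, were 30, 25 and 5 with 18 arrays normalized together, 40, 32 and 8 with 75th percentile scaling, and 32, 23 and 9 without scaling. They were 112, 83 and 29 with normexp background, 100, 72 and 28 with probes well above background, 67, 53 and 14 with values on all arrays, and 174, 129 and 45 with trend and robust variance. With 18 arrays in the fit they were 709, 418 and 291 (59.0% higher, against 77.3%), and with 9 cytoplasm arrays 54, 39 and 15. With no filter on dim spots limma called 0, 0 and 0 (4585 at an unadjusted p under 0.05), and the methods' t-test called 0, 0 and 0 by Bonferroni and by Benjamini-Hochberg (2355). The deposited values, which hold 1 of the 44 probes, gave 1, 1 and 0. With the mice as a replicate block (paired fit) they were 16, 15 and 1 (93.8% higher). Leaving out 1 array gave 4 to 35 called, 4 to 24 higher and 0 to 11 lower. Without scaling the median of all probes was -0.34.

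The count of probes whose muscle difference depended on fraction, 11, was 1 with 12 arrays normalized together, 7 with 75th percentile scaling, 3929 without scaling, 21 without weights, 0 with nuclear arrays as 1 sample (635 at an unadjusted p under 0.05 in limma), 2 with the replicate block and 1 to 8 with 1 array left out. The causes were not tested. The 3 arrays per muscle and their spread limit what could be called.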
